A study of Mus musculus with 8 samples.

Results

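Leukocytes attach to and read other cells through a small set of surface proteins, and 8 genes of that kind were followed here in 2 mouse mammary tumour lines: Vcam1, Icam1, Cd274, Cd47, Cd276, Pvr, Nt5e and Fas. They were picked by gene name out of 22026 named genes, with earlier results of these data known. The reads of all transcripts of a name were summed. The data were 8 bulk RNA-seq libraries of 4T1 and TS/A, which are transplantable BALB/c breast cancer lines. Each line had 2 libraries labelled as transduced with a virus vector for Gpr56 (now Adgrg1, an adhesion receptor for type III collagen) and 2 labelled as carrying the empty vector. The groups were thus 4T1 with the Gpr56 vector, 4T1 with the empty vector, TS/A with the Gpr56 label and TS/A with the empty vector. All were in RPMI with 10% FCS, RNA was taken at 72 h, and the series describes culture on type III collagen. The titles split the same libraries as ColIII against Control, both marked Emp, so a difference between vector labels and one between collagen conditions cannot be told apart. Neither the vector's promoter nor the number of clones is stated in the labels.

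Adgrg1 itself followed the vector label in 4T1 and not in TS/A. Its reads in 4T1 numbered 1934 and 1068 under the Gpr56 vector, against 45 and 59 under the empty vector (log2 fold change 5.16, SE 0.43, edgeR adjusted p = 0.00851). In TS/A it had 594 and 288 reads in the libraries labelled Gpr56, against 849 and 303 reads in the empty libraries (-0.51, SE 0.35, adjusted p = 1). The TS/A libraries are therefore called by their label throughout, and a direction between them is a direction between labels. Depth ran from 10510569 to 25959142 reads. The TS/A empty libraries differed from each other far beyond sampling noise, with a chi-square of 118 per degree of freedom over genes, while the other pairs had 3.58 to 17.4. Nothing in the labels says that replicate libraries came from separate cultures, so each p-value reflects library-to-library spread alone, which may be technical.

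Of 20 immune cell markers, 10 had no read in any library, among them Cd3e, Adgre1 and Tyrobp. Ptprc, the pan-leukocyte CD45, had 1 and 3 reads over the 4T1 groups (Gpr56 vector, empty vector) and 0 in both TS/A groups. Cd68 and Cd14, both on the list, did have reads, given as CPM scaled with TMM factors. In 4T1, Cd68 had 13.4 and 17.3 CPM with the Gpr56 vector, against 6.64 and 6.58 CPM with the empty vector. Cd14 had 11.2 and 9.94 CPM, against 8.04 and 6.95 CPM. In TS/A, Cd68 had 2.21 to 2.63 CPM and Cd14 5.37 to 10.6 CPM. The surface genes below were thus read out in cultures where most of these markers, but not Cd68 and Cd14, were at or near 0. Of 10 epithelial carcinoma markers, all were present in 4T1. In TS/A, Cdh1 had 6 reads over the Gpr56-labelled libraries and 4 over the empty ones, and Epcam had 1 and 3 reads. Krt18 was present there at 181 CPM (reads as CPM, scaled with TMM factors) with the Gpr56 label and 158 CPM with the empty vector. Krt19 had 30.6 to 55.7 CPM in the TS/A libraries. Krt8 had 0.138 to 0.574 CPM there and Krt7 0 to 0.457 CPM, and Esrp1, Grhl2, Cldn3 and Cldn7 had at most 0.328 CPM. The epithelial label of TS/A thus held for Krt18 and Krt19, and the other markers of the list were near 0.

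VCAM-1 and ICAM-1 are immunoglobulin-family ligands for leukocyte integrins, VCAM-1 for the α4 integrins and ICAM-1 for LFA-1 and Mac-1. They are best known from inflamed endothelium, where NF-κB turns both genes on, and both also occur on tumour cells. Cd274 encodes PD-L1, the ligand of PD-1, which interferon signalling induces, and Cd276 encodes the related B7-H3. CD47 binds SIRPα on macrophages and holds back phagocytosis, and the nectin-like protein encoded by Pvr (CD155) is bound by the lymphocyte receptors DNAM-1, TIGIT and CD96. Nt5e encodes CD73, the ectoenzyme that makes adenosine from AMP, and Fas is the receptor for Fas ligand that starts apoptosis through FADD and caspase-8.

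The promoters are shown for 3 members that behaved differently in 4T1 (Icam1 and Cd276 had groups apart in opposite directions, and those of Cd274 overlapped). RefSeq's GRCm38.p6 table held 7 promoter entries for 6 of the 8 members, and the 250 bases before the start were searched on both strands for GGAAANTCC (a κB form), TTCNNNGAA (the GAS form bound by STATs), an ISRE core (GAAA, any 2 bases, GAAA) and TATAAA. Capitals mark a match, and none of the searched forms overlapped another in these windows. Icam1 lies at chr9:21015690-21015939 (plus strand), Cd276 at chr9:58555034-58555283 (minus strand) and Cd274 at chr19:29367188-29367437 (plus strand), each 5′ to 3′ toward its gene.
Icam1: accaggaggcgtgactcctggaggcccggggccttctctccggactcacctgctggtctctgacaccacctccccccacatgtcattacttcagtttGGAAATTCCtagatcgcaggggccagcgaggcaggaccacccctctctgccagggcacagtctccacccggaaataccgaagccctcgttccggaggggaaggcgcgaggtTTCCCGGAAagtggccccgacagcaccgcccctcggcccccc
Cd276: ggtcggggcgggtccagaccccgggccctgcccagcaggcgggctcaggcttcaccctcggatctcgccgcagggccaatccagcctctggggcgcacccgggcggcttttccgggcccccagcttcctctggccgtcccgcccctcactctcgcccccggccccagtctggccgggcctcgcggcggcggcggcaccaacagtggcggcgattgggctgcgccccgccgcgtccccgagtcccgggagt
Cd274: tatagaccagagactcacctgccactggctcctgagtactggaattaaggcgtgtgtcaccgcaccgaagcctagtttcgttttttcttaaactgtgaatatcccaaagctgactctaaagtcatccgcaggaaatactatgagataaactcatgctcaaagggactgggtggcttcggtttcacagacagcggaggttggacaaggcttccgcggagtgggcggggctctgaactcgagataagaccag
Icam1 held the κB form at bases -153 to -145 and the GAS form at -42 to -34, counted from the last base before the start as -1. Of 32851 promoter windows of the same length, 1.07% held the κB form, 7.02% the GAS form, 2.98% the ISRE core and 12.4% TATAAA. The only other match among the 6 members with an entry was the GAS form in Fas at -93 to -85. Vcam1 and Pvr had no entry and were not searched. These letters describe the windows and say nothing of what binds there. The starts are those of RefSeq, and the Cd276 window lies inside the gene as GENCODE M21 places it (58524298 to 58555437).

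The adhesion ligands were the members that differed most with the vector label in 4T1. Vcam1 fell, and was the only 1 of the 8 members to pass with all 8 libraries fitted together, where 0.226% of the 11970 genes tested passed in either direction. When the 4 libraries of 4T1 were fitted alone, 4 members passed (Vcam1, Icam1 and Nt5e lower, Cd276 higher), where 22.8% of 11361 genes passed. The spread between replicates was smaller in that fit, with a biological coefficient of variation of 5.47% against 14.7% over all 8 libraries. In 5 members the 4T1 groups did not overlap, but 59.9% of all genes tested did not overlap either.

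**Figure D1:**
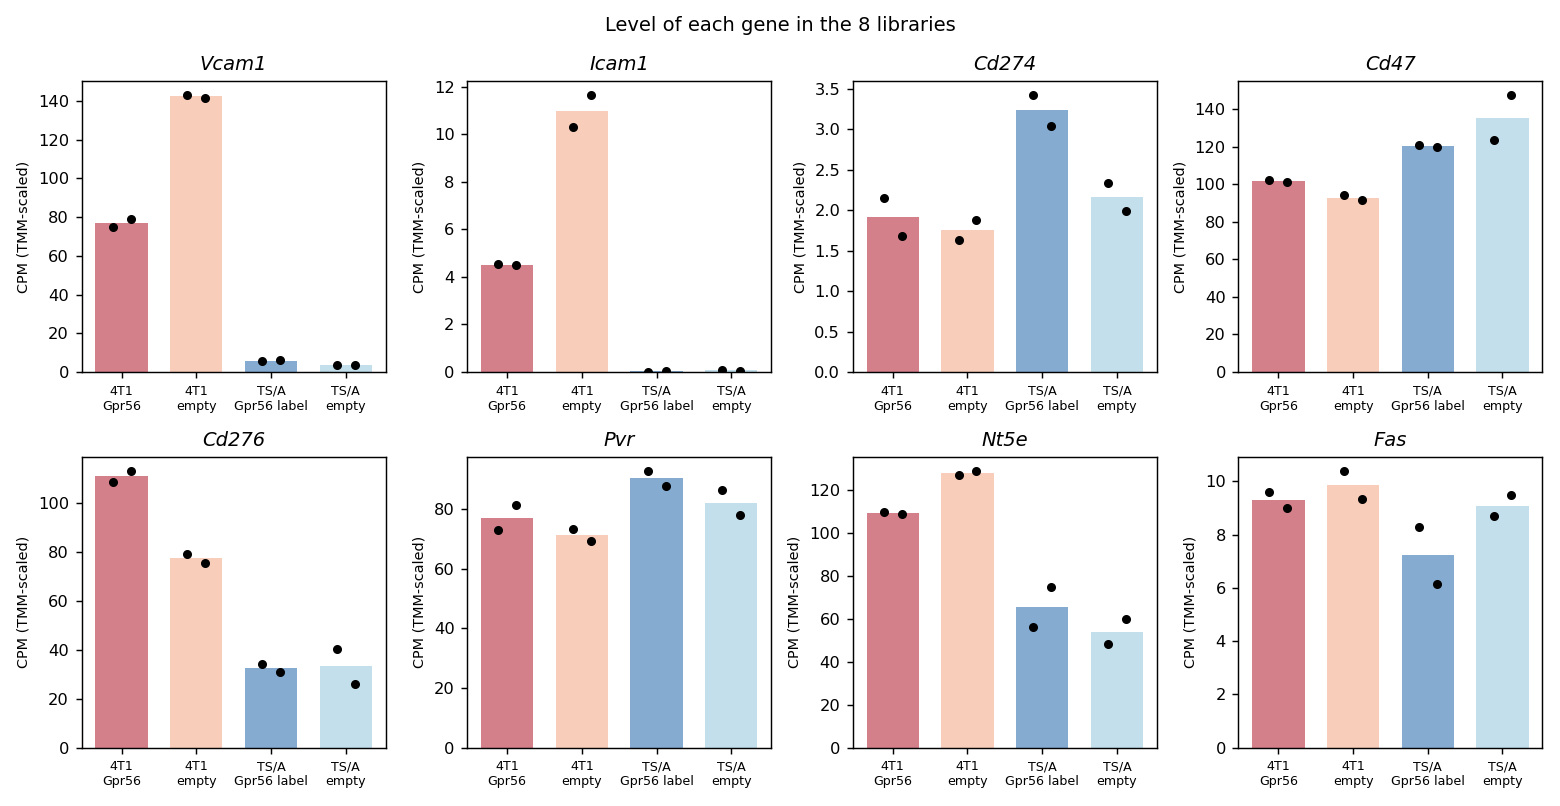
TMM-scaled CPM of the 8 genes in each library. Bars are group means, points are the 2 libraries of a group, and each panel has its own axis from 0. Vcam1 and Icam1 stand high in 4T1 with the empty vector and near 0 in TS/A, while Cd47 and Pvr are present in all 4 groups, with Cd47 at 92.9 to 102 CPM on average in the 4T1 groups and 120.3 to 135 CPM in the TS/A groups.

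Vcam1 (chromosome 3, 116109949 to 116129688, minus strand, GRCm38 as in GENCODE M21) had 74.7 and 79.0 CPM in 4T1 with the Gpr56 vector, against 143 and 142 CPM in 4T1 with the empty vector. Both Gpr56 libraries lay well below both empty libraries, and replicates differed by only a few CPM. The log2 fold change was -0.89 (SE 0.11, 1.85-fold lower, adjusted p = 0.0337 with all 8 libraries and 1.57e-07 with 4T1 alone). The 8-library call was lost when any 1 of the 4T1 libraries or of the Gpr56-labelled TS/A libraries was left out (adjusted p from 0.0912 to 0.536) and without TMM factors (adjusted p = 0.0541). It held without either TS/A empty library (adjusted p = 7.25e-05 and 7.26e-05), and the log2 fold change stayed between -0.93 and -0.85 in all 17 alternatives. Of its 3 transcript models, Vcam1_1 (3469 bases) took 96.3% to 100% of the reads in every library.

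In TS/A, Vcam1 was low and did not follow 4T1. It had 5.52 and 6.18 CPM in the Gpr56-labelled libraries, against 3.57 and 3.55 CPM in the empty libraries. The groups did not overlap, with the Gpr56-labelled pair higher (log2 fold change 0.71, SE 0.14, unadjusted p = 7.503e-04, adjusted p = 1). Leaving out TS/A empty library 2 gave an adjusted p of 0.00882, and leaving out library 1 gave 0.0538. The difference between the 2 vector contrasts, TS/A minus 4T1, was itself tested and was 1.60 on the log2 scale (SE 0.18, adjusted p = 0.0351). Vcam1 was 1 of 8 genes that passed that test among 11970 (0.0668%), a set that also held Adgrg1, Mal, Prl2c2, Anxa8, Hspb1, Krt14 and Epdr1, and it was the only member to pass. That call was lost without any 1 of the 4T1 or Gpr56-labelled TS/A libraries (adjusted p from 0.241 to 0.333), with limma-voom (0.164), without TMM factors (0.0556) and with a term for replicate number (0.0506), and it held without either TS/A empty library (0.00188 and 5.34e-04).

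Icam1 (chromosome 9, 21015985 to 21028817, plus strand) was also lower in 4T1 with the Gpr56 vector. It had 97 and 48 reads there (4.54 and 4.50 CPM), against 183 and 248 reads (10.3 and 11.6 CPM) in 4T1 with the empty vector. The 2 Gpr56 libraries were nearly equal and both lay below the empty libraries, with a log2 fold change of -1.28 (SE 0.26, 2.43-fold lower). With all 8 libraries this did not pass (adjusted p = 0.111), and with 4T1 alone Icam1 fell (SE 0.17, adjusted p = 1.07e-04). It also passed with DESeq2 (0.0158), with no low-count filter (0.0145), and in the 8-library fit less TS/A empty library 1 (0.00608) or 2 (0.00655). In TS/A, Icam1 had 0 and 1 reads with the Gpr56 label and 2 and 1 reads with the empty vector. All 4 libraries were at or under 3 reads, the limit that a count of 0 allows, and no vector difference is given for that line.

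**Figure D2:**
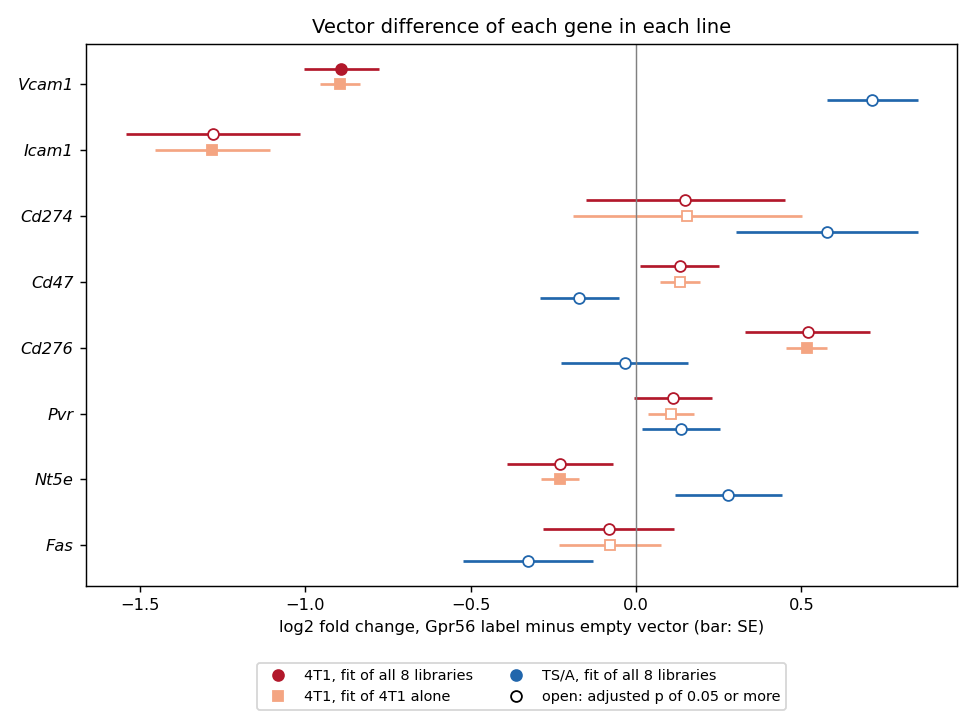
Log2 fold change of each gene between the Gpr56 and the empty label within a line, with its SE, in 4T1 (fit of all 8 libraries and fit of 4T1 alone) and in TS/A (fit of all 8 libraries). Filled points had an adjusted p under 0.05. Vcam1 lies at -0.89 in 4T1 and 0.71 in TS/A, and no TS/A point is filled. Icam1 has no TS/A point because its reads there were too few.

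The checkpoint ligands did not move together. Cd276 (chromosome 9, 58524298 to 58555437, minus strand) had 108 and 113 CPM in 4T1 with the Gpr56 vector, against 79.2 and 75.3 CPM with the empty vector. The groups were separate, and Cd276 rose in the fit of 4T1 alone (log2 fold change 0.52, SE 0.06, 1.43-fold, adjusted p = 3.52e-05) but did not pass with all 8 libraries (SE 0.19, adjusted p = 0.329). With all 8 libraries it passed only when TS/A empty library 1 (0.00271) or 2 (0.00264) was left out. In TS/A, Cd276 had 34.4 and 30.9 CPM with the Gpr56 label and 40.5 and 26.2 CPM with the empty vector. There the empty libraries enclosed the others, and the sign of the log2 fold change (-0.03, SE 0.19, adjusted p = 1) turned to 0.32 without TS/A empty library 1 and was -0.31 without library 2. Of its 4 transcript models, Cd276_2 took 74.9% to 90.6% of the reads.

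Cd274 (chromosome 19, 29367455 to 29388095, plus strand) was scarce in both lines. It had 46 and 18 reads (2.15 and 1.69 CPM) in the Gpr56 libraries of 4T1, against 29 and 40 reads (1.63 and 1.88 CPM) in the empty ones, and these groups overlapped. In TS/A it had 3.43 and 3.05 CPM with the Gpr56 label, against 2.34 and 1.99 CPM with the empty vector. The TS/A groups did not overlap, yet the log2 fold change of 0.58 (SE 0.28) did not pass (unadjusted p = 0.0687, adjusted p = 1). Its log2 fold change in 4T1 was 0.15 with an SE of 0.30 (adjusted p = 0.926), an SE well above the 0.11 of Vcam1, so a small difference was not detectable at this depth.

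Pvr (chromosome 7, 19903578 to 19921160, minus strand) passed in neither line. It had 73.0 and 81.3 CPM in 4T1 with the Gpr56 vector, against 73.4 and 69.1 CPM with the empty vector, and the ranges overlapped. The log2 fold change was 0.11 in 4T1 (SE 0.12, adjusted p = 0.81) and 0.14 in TS/A (SE 0.12, adjusted p = 1). In TS/A the values were 92.9 and 87.8 CPM with the Gpr56 label, against 86.3 and 78.1 CPM with the empty vector.

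Cd47 (chromosome 16, 49800533 to 49915010, plus strand) had 102 and 101.04 CPM in 4T1 with the Gpr56 vector, against 94.1 and 91.6 CPM with the empty vector. These groups did not overlap, but the log2 fold change of 0.13 passed neither with all 8 libraries (SE 0.12, adjusted p = 0.769) nor with 4T1 alone (SE 0.06, adjusted p = 0.123). In TS/A it had 120.8 and 119.7 CPM with the Gpr56 label, against 123 and 148 CPM with the empty vector (-0.17, SE 0.12, adjusted p = 1). Both signs rested on separate groups and neither passed.

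Nt5e (chromosome 9, 88327197 to 88372092, plus strand) had 109.6 and 108 CPM in 4T1 with the Gpr56 vector, against 127 and 129 CPM with the empty vector. The groups did not overlap, and Nt5e fell in the fit of 4T1 alone (log2 fold change -0.23, SE 0.06, 1.17-fold lower, adjusted p = 0.0094) but did not pass with all 8 libraries (SE 0.16, adjusted p = 0.675). With 4T1 alone the call was lost without empty library 1 (0.0661) or 2 (0.113), which leaves 1 empty library assumed to vary like the Gpr56 pair. In TS/A, Nt5e had 56.3 and 74.5 CPM with the Gpr56 label and 48.1 and 59.7 CPM with the empty vector. Those ranges overlapped (0.28, SE 0.16, adjusted p = 1).

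Fas (chromosome 19, 34290666 to 34327772, plus strand) was low and passed in neither line. It had 9.59 and 8.998 CPM in 4T1 with the Gpr56 vector, against 10.4 and 9.35 CPM with the empty vector, with overlapping ranges (log2 fold change -0.08, SE 0.20, adjusted p = 0.942). In TS/A it had 8.30 and 6.14 CPM with the Gpr56 label, against 8.69 and 9.48 CPM with the empty vector (-0.33, SE 0.20, adjusted p = 1). Only 4 of its 1424 reads lay outside the model Fas_2.

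No member passed between the TS/A labels with all 8 libraries, where 1 gene of 11970 did (0.00835%) and 416 had an unadjusted p under 0.05. In 5 of the 7 members with enough reads the TS/A groups did not overlap, where 21.6% of all genes did not. Leaving out 1 library at a time, the log2 fold change ran from 0.63 to 0.80 for Vcam1 and from 0.063 to 0.47 for Nt5e. For Cd276 it ran from -0.31 to 0.32. Members passed only in the fit without TS/A empty library 2, with Vcam1 and Nt5e higher and Cd276 lower under the Gpr56 label. That fit left 1 empty library of TS/A. DESeq2 called 10 genes and none of the members.

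Per unit of transcript length the genes were ordered by RPKM summed over the transcripts of a gene (mean ± SD, n = 2). Cd47 came first in all 4 groups, at 49.8 ± 0.994 in 4T1 with the Gpr56 vector, 48.4 ± 1.24 in 4T1 with the empty vector, 78.9 ± 0.136 in TS/A with the Gpr56 label and 84.4 ± 15.6 in TS/A with the empty vector. In 4T1 with the Gpr56 vector it was followed by Cd276 (33.0 ± 2.22), Nt5e (26.1 ± 0.0523), Pvr (25.3 ± 2.07), Vcam1 (21.8 ± 0.78), Fas (6.02 ± 0.166), Icam1 (1.70 ± 0.00141) and Cd274 (0.506 ± 0.084). In 4T1 with the empty vector Vcam1 stood second (39.2 ± 0.0083), ahead of Nt5e (29.8 ± 0.13), Pvr (22.9 ± 1.11) and Cd276 (22.7 ± 1.102). Pvr was second in TS/A, at 29.6 ± 1.63 with the Gpr56 label and 27.0 ± 3.75 with the empty vector, and Icam1 was last. The neighbours whose ranges overlapped were Nt5e and Pvr in 4T1 with the Gpr56 vector, Pvr and Cd276 in 4T1 with the empty vector, and Nt5e and Cd276 in TS/A with the empty vector. All other neighbours were apart in their 2 libraries. The first place of Cd47 in 4T1 rests on the sum. With the empty vector its model Cd47_2 alone had 27.9 and 26.5 RPKM, below the 37.6 and 36.7 RPKM of Vcam1_1. With the Gpr56 vector Cd47_2 had 19.0 and 26.9 RPKM, and Cd276_2 had 24.2 and 30.5 RPKM. In TS/A, Cd47_2 alone had 39.7 to 55.8 RPKM, above the 24.3 to 30.8 RPKM of Pvr.

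**Figure D3:**
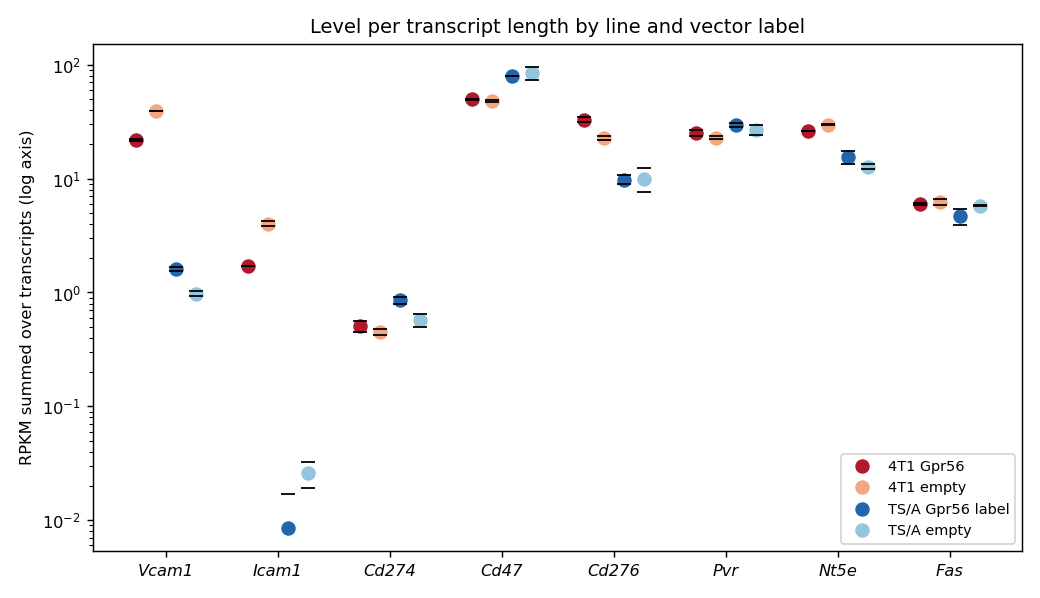
RPKM summed over transcripts for each gene on a log axis. Coloured points are group means, dashes are libraries with at least 1 read. Vcam1 and Icam1 fall far lower in TS/A than in 4T1, and Cd47 is highest in all 4 groups.

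Cd47 differed from the other members in how its reads were shared out. It had 9 transcript models, 8 of them with reads, and its RPKM is their sum. In all 4 libraries of 4T1 the longest model, Cd47_6, had the most reads, and in all 4 of TS/A the shorter Cd47_2 (1175 bases) did. Per length Cd47_2 had 19.0 and 26.9 RPKM in 4T1 with the Gpr56 vector and 27.9 and 26.5 RPKM with the empty vector. Cd47_6 (5250 bases) took 48.2% ± 0.393 of Cd47 reads in 4T1 with the Gpr56 vector and 42.0% ± 5.03 with the empty vector. In TS/A its share was 20.7% ± 2.44 with the Gpr56 label and 26.0% ± 12.95 with the empty vector (SD, n = 2 each). Within the TS/A empty pair the shares were 35.1% (95% Wilson interval 33.5% to 36.9%) in library 1 and 16.8% (15.5% to 18.3%) in library 2, a gap wider than that between the line means with the empty vector. Library 1 was nonetheless below both 4T1 empty libraries (45.6% and 38.5%). The intervals cover counting error only, and the labels do not say how reads were split among overlapping models.

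**Figure D4:**
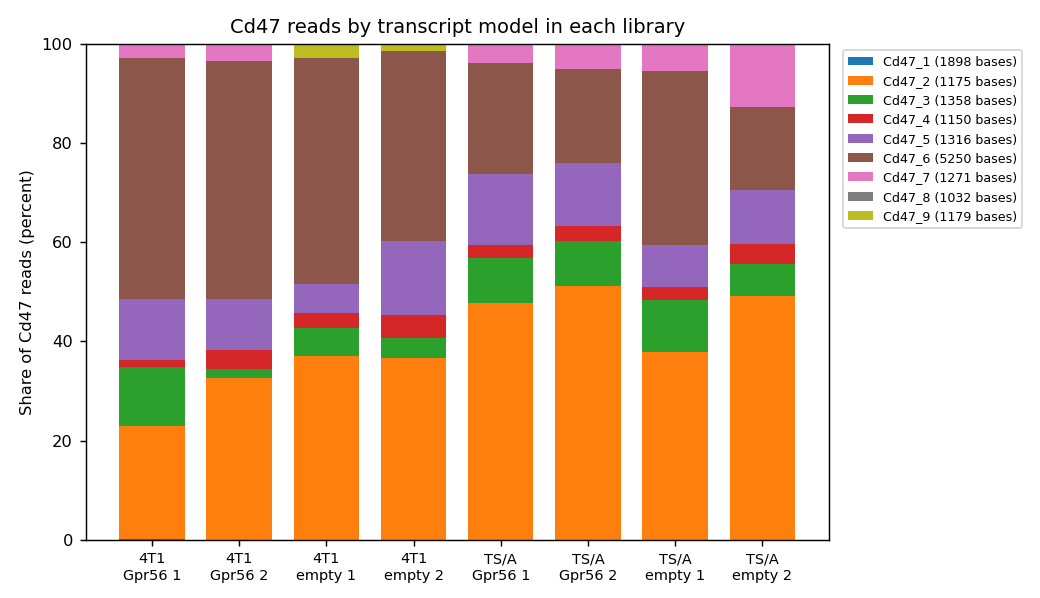
Share of Cd47 reads assigned to each of its 9 transcript models in each library, in percent. The 5250-base model holds 38.5% to 48.5% in the 4T1 libraries and 16.8% to 35.1% in the TS/A libraries.

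Between the lines the adhesion ligands differed most among the 8 genes. With the empty vector, 5 of 8 members passed, where 47.4% of genes tested passed, so the count itself was close to that of genes at large. Vcam1 averaged 3.56 ± 0.00933 CPM in TS/A and 142 ± 1.07 CPM in 4T1 (SD, n = 2 each), a log2 fold change of -5.32 (SE 0.14, 39.9-fold lower, adjusted p = 3.39e-07). Icam1 had 3 reads over the TS/A libraries and 431 over the 4T1 libraries, a 155-fold lower rate per read sequenced with an exact 95% interval of 52.8-fold to 756-fold, which covers counting error only. The median log2 fold change of the 8 members was -0.67, and that of all genes tested was 0.015.

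Cd276 averaged 33.3 ± 10.1 CPM in TS/A and 77.3 ± 2.76 CPM in 4T1 with the empty vector (-1.21, SE 0.19, adjusted p = 0.00144). Nt5e averaged 53.9 ± 8.19 CPM in TS/A and 128 ± 1.35 CPM in 4T1 (-1.25, SE 0.16, adjusted p = 5.24e-04). Cd47 was the member that was higher in TS/A, at 135 ± 17.1 CPM against 92.9 ± 1.81 CPM in 4T1 (0.54, SE 0.12, adjusted p = 0.0064). Its call was lost with only these 4 libraries fitted (adjusted p = 0.051) and without 4T1 empty library 1 (0.0544) or 2 (0.0686). Cd274 (0.30, SE 0.29, adjusted p = 0.413), Pvr (0.21, SE 0.12, adjusted p = 0.181) and Fas (-0.12, SE 0.20, adjusted p = 0.632) did not pass.

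Among the Gpr56-labelled libraries 4 members passed, where 54.0% of genes tested did. Vcam1 averaged 5.85 ± 0.467 CPM in TS/A and 76.9 ± 3.05 CPM in 4T1 (-3.72, SE 0.13, adjusted p = 4.71e-07). Icam1 had 1 read over the TS/A libraries and 145 over the 4T1 libraries, a 219-fold lower rate with an exact 95% interval of 38.7-fold to 8711-fold. Cd276 (-1.76, SE 0.19, adjusted p = 1.78e-04) and Nt5e (-0.74, SE 0.16, adjusted p = 0.00572) were lower in TS/A as well. Cd47 (0.24, adjusted p = 0.119) and Pvr (0.23, adjusted p = 0.131) did not pass with all 8 libraries. Both passed when these 4 libraries were fitted alone (0.0214 and 0.0433). In the 8-library fit they passed only with 1 of the TS/A empty libraries left out.

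The wider pathways were followed with 9 lists that held 170 genes, 128 of them tested. With all 8 libraries 2 of the 128 passed in 4T1 (Vcam1 lower and Itgb2 higher), and with 4T1 alone 24 rose and 17 fell of 123, where 1308 rose and 1280 fell of 11361 genes. In TS/A none of the 128 passed. Between the lines with the empty vector 28 were higher in TS/A and 56 lower (65.6% of 128), where 47.4% of all genes tested passed, and with those 4 libraries fitted alone 19 were higher and 44 lower of 126. The values below for 4T1 are from the fit of 4T1 alone unless said otherwise.

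Of 24 leukocyte adhesion ligands, 15 were tested in 4T1 alone, where 4 rose and 4 fell (median log2 fold change 0.15, against -0.00040 for all genes). Besides Vcam1 and Icam1, the endothelial-type adhesion molecule Mcam fell (18.4 CPM with the Gpr56 vector and 24.4 CPM with the empty vector, -0.42, adjusted p = 0.0125) and the neural adhesion molecule L1cam rose (23.4 and 14.4 CPM, 0.69, adjusted p = 6.52e-04). Between the lines with the empty vector 4 were higher in TS/A and 8 lower, of 18 tested, with a median of -0.65. Alcam, the ligand of CD6, had 2 reads over the TS/A libraries and 1658 over the 4T1 libraries, an 896-fold lower rate (exact 95% interval 248-fold to 7404-fold). Cd34, a sialomucin, had 0 and 45 reads, at least 16.2-fold lower with 3 reads over the group as the limit. The tetraspanin Cd9 was higher in TS/A (444 CPM, against 187 CPM in 4T1, log2 fold change 1.25, adjusted p = 0.00166), and so was the junctional Esam at a low level (0.76 against 0.202 CPM, 1.87, adjusted p = 0.0279). Esam rested on 33 and 8 reads and passed in only 8 of 16 alternatives, with an adjusted p of up to 0.170, and its call was lost without either 4T1 empty library, either 4T1 Gpr56 library or either TS/A empty library.

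Of 22 B7-family and other checkpoint ligands, 13 were too low to be tested, and Pdcd1lg2 and Cd86 had no read in any library. In 4T1, Cd276 and Lgals3 rose (Lgals3, a galectin that binds LAG-3, had 302 CPM with the Gpr56 vector and 229 CPM with the empty vector, 0.40, adjusted p = 2.39e-04), none fell, and the median was 0.19. Between the lines 3 were higher and 3 lower in TS/A with the empty vector (median -0.19). The galectin Lgals9 had 84.5 CPM in TS/A and 38.7 CPM in 4T1 (1.13, adjusted p = 0.00227), and Tnfsf9, the ligand of 4-1BB, 8.94 and 4.5995 CPM (0.95, adjusted p = 0.046). Tnfsf9 passed in 10 of 16 alternatives and in 3 of the 8 that left out a library, with log2 fold changes from 0.61 (adjusted p = 0.254, without 4T1 empty library 1) to 1.40 (without 4T1 empty library 2). Cd40, a costimulatory TNF receptor, had 3 reads in TS/A and 368 in 4T1, a 133-fold lower rate (exact 95% interval 45.0-fold to 646-fold), and the butyrophilin Btn1a1 0.177 and 1.36 CPM (-2.84, adjusted p = 0.00589).

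Of 12 nectins and partner ligands, 10 were tested, and in 4T1 3 rose and 3 fell (median 0.19). Nectin1 (17.2 CPM with the Gpr56 vector and 12.1 CPM with the empty vector, 0.50, adjusted p = 0.00995) and Nectin2, which shares the receptors DNAM-1 and TIGIT with Pvr (68.3 and 53.3 CPM, 0.35, adjusted p = 0.0015), rose. The NKG2D ligand Raet1e (0.281 and 1.999 CPM, -2.67, adjusted p = 0.00143) and Nectin3 (20.2 and 26.3 CPM, -0.38, adjusted p = 0.0223) fell. Between the lines 2 were higher in TS/A and 7 lower (median -0.69). Cadm1, a nectin-like adhesion molecule, had 286 ± 77.3 CPM in TS/A and 0.371 ± 0.206 CPM in 4T1 with the empty vector (9.52, SE 0.36, adjusted p = 7.62e-07). The NKG2D ligand Ulbp1 was also higher (177 against 71.0 CPM, 1.32, adjusted p = 2.14e-04). Nectin2 was lower (15.6 against 53.3 CPM, -1.77, adjusted p = 2.25e-05), and Raet1e had 0 reads in TS/A and 78 in 4T1 (at least 28.1-fold lower).

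Of 15 genes around CD47 and phagocytosis, 13 were tested in 4T1 alone, where 1 rose and 2 fell (median -0.06). Anxa1 rose (1028 CPM with the Gpr56 vector and 758 CPM with the empty vector, 0.44, adjusted p = 5.75e-05). Lrp1, the receptor for calreticulin, fell (81.9 and 129 CPM, -0.65, adjusted p = 3.48e-06), and so did Thbs1, the CD47-binding thrombospondin (345 and 478 CPM, -0.47, adjusted p = 2.02e-05). Between the lines 3 were higher and 5 lower in TS/A of 14 tested (median -0.27). Cd24a, the ligand of Siglec-G and so a second signal against phagocytosis, had 3.18 ± 0.312 CPM in TS/A and 284 ± 5.16 CPM in 4T1 (-6.47, SE 0.18, adjusted p = 3.39e-07), and Qpct had 1 and 35 reads. Thbs2 had 111 reads in TS/A and 2 in 4T1, and Lrp1 was higher in TS/A (372 ± 198 against 129 ± 5.75 CPM, 1.53, adjusted p = 0.00436), with a log2 fold change of 0.85 without TS/A empty library 1 and 1.99 without library 2.

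Of 19 adenosine and purine genes, 13 were tested in 4T1 alone, where 2 rose and 3 fell (median 0.012). Entpd3, an ectonucleoside hydrolase upstream of CD73 (8.29 CPM with the Gpr56 vector and 4.86 CPM with the empty vector, 0.77, adjusted p = 0.00672), and the NAD ectoenzyme Bst1 (6.39 and 4.06 CPM, 0.65, adjusted p = 0.0439) rose. The adenosine transporter Slc29a1 fell (120.1 and 153 CPM, -0.35, adjusted p = 9.11e-04), as did adenosine kinase, Adk (88.4 and 105 CPM, -0.24, adjusted p = 0.00944), and Nt5e. Entpd1, the CD39 that makes the AMP used by CD73 in many tissues, had 0 reads in 3 groups and 3 reads over the TS/A empty libraries. Between the lines 3 were higher and 10 lower in TS/A of 14 tested (median -1.62). The adenosine receptor Adora1 had 1 read in TS/A and 203 in 4T1 (219-fold lower, exact 95% interval 38.9-fold to 8707-fold) and Enpp1 had 0 and 62 reads (at least 22.3-fold lower). Cd38 (2.83 against 0.568 CPM, 2.30, adjusted p = 0.00454) and the ATP-gated channel P2rx7 (8.84 against 2.17 CPM, 2.03, adjusted p = 2.84e-04) were higher in TS/A.

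Of 20 genes of the Fas and death receptor pathway, 17 were tested, and in 4T1 3 rose and none fell (median 0.0034). Casp8 (69.2 CPM with the Gpr56 vector and 58.0 CPM with the empty vector, 0.25, adjusted p = 0.01) and the TRAIL receptor Tnfrsf10b (77.2 and 64.7 CPM, 0.25, adjusted p = 0.0132) were 2 of the 3. Fasl had at most 3 reads in any group. Between the lines 3 were higher and 6 lower in TS/A (median -0.12), with the TNF receptor Tnfrsf1a (74.96 against 34.1 CPM, 1.14, adjusted p = 2.25e-04) and Ripk1 (71.7 against 44.9 CPM, 0.68, adjusted p = 0.00261) higher, and Fadd (8.25 against 14.4 CPM, -0.81, adjusted p = 0.0202) lower. The Fadd call was lost without either 4T1 empty library or with the 4 empty libraries alone (adjusted p up to 0.123).

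All 24 genes of NF-κB and interferon signalling were tested, and in 4T1 4 rose and 5 fell (median -0.036). Socs1, an inhibitor of JAK signalling (7.59 CPM with the Gpr56 vector and 3.55 CPM with the empty vector, 1.10, adjusted p = 0.00125), and the RNA sensor Tlr3 (28.0 and 15.8 CPM, 0.83, adjusted p = 7.73e-05) rose. Nfkbie, the inhibitor IκBε that NF-κB itself induces (14.4 and 23.2 CPM, -0.69, adjusted p = 7.21e-04), and the transcription factor Irf1 (44.4 and 59.7 CPM, -0.42, adjusted p = 4.53e-04) fell. None of the 24 passed with all 8 libraries. Between the lines 4 were higher and 8 lower in TS/A (median -0.27). Tnfaip3, the A20 deubiquitinase that limits NF-κB, had 37.3 CPM in TS/A and 179 CPM in 4T1 (-2.26, adjusted p = 5.75e-05), and Nfkb2 116 and 250.2 CPM (-1.11, adjusted p = 6.40e-04). Socs1 (9.28 and 3.55 CPM, 1.39, adjusted p = 0.00255) and Jak2 (120.04 ± 54.3 and 48.4 ± 0.0703 CPM, 1.31, adjusted p = 0.00549) were higher in TS/A.

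**Figure D5:**
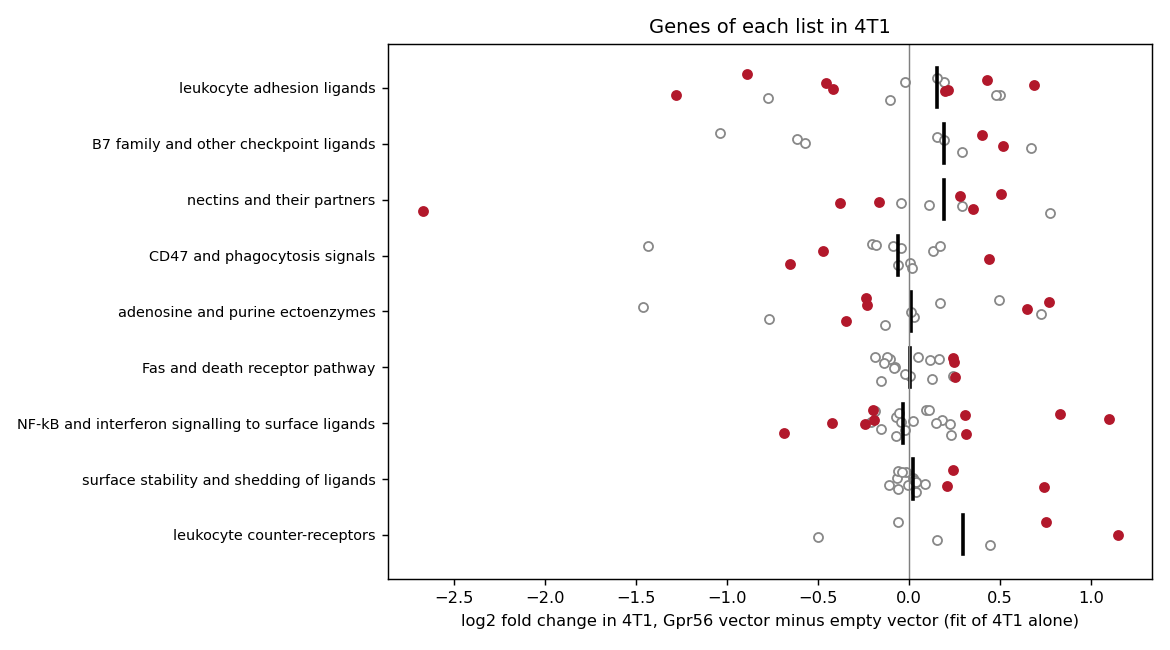
Log2 fold change in 4T1, Gpr56 vector minus empty vector, of each tested gene of 9 lists in the fit of 4T1 alone. Red points had an adjusted p under 0.05, open points did not, and black bars are list medians, which lie between -0.06 and 0.30. Vcam1 and Icam1 are the adhesion ligands at -0.89 and -1.28.

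All 16 genes for stability and shedding of surface ligands were tested, and in 4T1 3 rose and none fell (median 0.022). B3gnt3, a glycosyltransferase that modifies PD-L1 (41.7 CPM with the Gpr56 vector and 24.9 CPM with the empty vector, 0.74, adjusted p = 3.82e-05), and Cmtm6, which keeps PD-L1 at the surface (76.4 and 64.8 CPM, 0.24, adjusted p = 0.0253), rose. The sheddases Adam10 (-0.07, adjusted p = 0.489) and Adam17 (0.04, adjusted p = 0.715) did not pass. Between the lines 4 were higher and 6 lower in TS/A (median -0.0015), with Stub1 (102 against 65.6 CPM, 0.64, adjusted p = 0.0029) and Cops5 (197 against 134 CPM, 0.56, adjusted p = 0.0129) higher and Stt3a (272 against 685 CPM, -1.33, adjusted p = 7.25e-05) and Cmtm4 (94.3 against 232 CPM, -1.30, adjusted p = 1.14e-04) lower. Cops5 lost its call without either 4T1 empty library or with the 4 empty libraries alone (adjusted p up to 0.0987).

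Of 18 receptors by which leukocytes bind these ligands, 6 were at 0 in all 8 libraries: Itgal and Itga4, the α chains that bind ICAM-1 and VCAM-1, Pdcd1, Cd226, Cd96 and Klrk1. Tigit, a receptor of Pvr that is known from T and NK cells, did have reads. It had 67.3 and 62.1 CPM in 4T1 with the Gpr56 vector, against 37.5 and 39.5 CPM in 4T1 with the empty vector. In TS/A the values were 19.2 and 16.6 CPM under the Gpr56 label, against 18.5 and 15.2 CPM under the empty one. The 4T1 groups did not overlap, and Tigit rose in the fit of 4T1 alone (0.75, SE 0.07, adjusted p = 4.82e-06) but did not pass with all 8 libraries (SE 0.14, adjusted p = 0.098). Of 6 receptors tested in 4T1 alone 2 rose, Tigit and Itgb2, and none fell (median 0.30). Itgb2, the β chain shared by LFA-1 and Mac-1, rose in 4T1 with all 8 libraries (39.3 ± 0.393 CPM with the Gpr56 vector and 17.8 ± 0.954 CPM with the empty vector, 1.14, SE 0.14, adjusted p = 0.0328). Its call was lost without any 1 of the 4T1 libraries or the Gpr56-labelled TS/A libraries (adjusted p from 0.0843 to 0.457). Its α chain partners Itgam and Itgax had at most 2 reads in any group. Itgb7, the β chain that pairs with α4 or αE, had 142 ± 16.1 CPM in TS/A and 3.62 ± 0.191 CPM in 4T1 with the empty vector (5.29, SE 0.20, adjusted p = 6.86e-07), with Itga4 at 0 and Itgae at 10 reads over the TS/A libraries. Havcr2 was higher in TS/A as well (12.6 against 5.21 CPM, 1.27, adjusted p = 0.00239), while Siglecg (1.33 against 4.77 CPM, -1.80, adjusted p = 0.00912) and Itgb2 (5.49 against 17.8 CPM, -1.69, adjusted p = 6.43e-05) were lower. Without 4T1 empty library 2 Siglecg did not pass (adjusted p = 0.0613), and its log2 fold change was -2.76 without TS/A empty library 1.

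Marker lists of other cell types were called in 4T1 beside Vcam1 and Icam1 in the fit of 4T1 alone, and with all 8 libraries no gene of the 4 marker lists passed. The 10 epithelial markers summed to 3138 and 3050 plain CPM with the Gpr56 vector, against 2226 and 2189 with the empty vector, and in 4T1 alone 8 rose and 1 fell. Krt19 rose (141 and 69.9 CPM, 1.0146, adjusted p = 2.68e-07), and so did the splicing factor Esrp1 (74.5 and 38.8 CPM, 0.94, adjusted p = 2.55e-07), while the claudin Cldn3 fell (5.64 and 15.3 CPM, -1.47, adjusted p = 1.79e-05). Fibroblast markers (13 genes) totalled 9.77 and 11.4 CPM with the Gpr56 vector, against 19.2 and 18.4 CPM with the empty vector. Pdgfra (8.10 and 13.3 CPM, -0.72, adjusted p = 0.00213) and Fbln1 (0.515 and 2.31 CPM, -2.18, adjusted p = 0.00263) fell, and Lum, Fap, Thy1 and Tcf21 had no read in any library. For the 20 immune markers the sums were 26.8 and 29.8 CPM with the Gpr56 vector and 15.6 and 14.2 CPM with the empty vector, almost all of it from Cd68 (15.4 and 6.61 CPM, 1.19, adjusted p = 1.07e-04) and Cd14 (10.6 and 7.497 CPM, 0.51, adjusted p = 0.0332). Endothelial markers, 12 in all, came to 33.6 and 40.7 CPM with the Gpr56 vector and 40.1 and 40.0 CPM with the empty vector, mainly from Flt1 (21.8 and 28.0 CPM, -0.38, adjusted p = 0.0239) and Egfl7, with Emcn, Cldn5, Erg and Sox17 at 0 in all libraries. The part of these marker differences in those of Vcam1 and Icam1 was not tested, and in bulk RNA fewer cells of a type and less RNA per cell cannot be told apart.

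Between the lines with the empty vector, all 10 epithelial markers were lower in TS/A. Cdh1 had 4 reads in TS/A and 10719 in 4T1, and Esrp1 had 0 and 1517 (at least 546-fold lower). Fibroblast markers summed to 377 and 158 CPM in TS/A and 19.2 and 18.4 CPM in 4T1, most of it from Col1a1 (225 ± 122 and 1.74 ± 0.00391 CPM, 7.01, SE 0.48, adjusted p = 1.56e-05), with Col1a2, Col3a1 and Dcn each at or under 11 reads per group. Pdgfrb had 254 reads in TS/A and 3 in 4T1, and Postn 0 and 39. The immune marker Cd68 (2.35 and 6.61 CPM, -1.496, adjusted p = 9.62e-04) and the endothelial marker Flt1 (13.2 and 28.0 CPM, -1.08, adjusted p = 0.0134) were lower in TS/A. The Flt1 call was lost without either 4T1 empty library or with the 4 empty libraries alone (adjusted p up to 0.0665). These differences accompanied those of Vcam1, Icam1, Cd276 and Nt5e between the lines, and their part in them was not tested.

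The genes most like each member over the 8 libraries, by Pearson's r of log2 CPM, are given as a description, since the 8 points share lines and libraries. They were taken from 8741 tested genes with a mean of at least 10 CPM, less the member itself and genes with no standard symbol. For Vcam1 they were Noc2l and Mtbp (r = 0.998 for both), whose means in the 4 groups were 259, 298, 152 and 144 CPM and 120.3, 152, 46.6 and 41.2 CPM (4T1 with the Gpr56 vector, 4T1 with the empty vector, TS/A with the Gpr56 label, TS/A with the empty vector). For Icam1 they were Laptm4b (0.998) and Tufm (0.997), for Cd276 Rnpep and St3gal2 (0.998 for both) and for Nt5e Ggct (0.997) and Zfp202 (0.992). Icam1 had 0 to 2 reads per TS/A library, so its log2 CPM there was set largely by the prior count of 2 added before the log. Likeness was looser for Cd47 (Arpc5 and Pts, 0.978 for both), Pvr (Tmem87b, 0.971, and Dcaf8, 0.962), Fas (Ubfd1, 0.955, and Ric8b, 0.933) and Cd274 (Lonrf1, 0.938, and Tec, 0.936). None of these 16 genes is on the surface gene lists.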

How the data were processed

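The study measured bulk RNA-seq in 8 libraries, 2 per line and vector label. The deposited files gave, per transcript, whole-number read counts and RPKM, per the file headers. No source used here names the aligner, counter or build. RNA came from RNeasy and libraries from TruSeq RNA v2, per the labels' protocols. That kit does not mark strand, so reads of antisense genes annotated over Vcam1, Icam1, Cd274, Cd276 and Pvr cannot be told apart. The authors' deposited RPKM equalled reads over length and 1 factor per library for 98.4% to 98.5% of transcripts per library (tolerance 0.001), and was used only for levels per length.

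Counts were summed by gene name, which gave the same member totals as GENCODE M21 gene IDs. edgeR 4.0.16 (R 4.3.3; filterByExpr, TMM, quasi-likelihood F test, 4 group means, Benjamini-Hochberg adjustment over all tested genes, threshold 0.05) was run on all 8 libraries and on 4 at a time. Log2 fold changes are the first-named group minus the other. SE is the log2 fold change over the root of F. The code was tested on counts simulated with the spread of the 8-library fit. With all 8 libraries it found 13 of 100 genes changed 1.5-fold in 4T1 and 93 of 100 changed 3-fold, with 3 false calls. With 4T1 alone it found 6 and 88, with 8 false calls. Alternatives were DESeq2 1.42.0 and its size factors, limma-voom (limma 3.58.1), no TMM, other filters, a replicate term, gene IDs and leaving out each library.

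Members and lists were chosen with earlier results of these data known. Named genes are the members, Adgrg1 and, per list, up to 2 each way with the largest change past the threshold, from the fit of 4T1 alone where none passed with all 8. Mcam, L1cam and Tigit, and elsewhere genes named for absence or as the other genes called in a test, lie outside it, having been picked once values were known. Some genes are not reported here. Groups follow the sample characteristics.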

Additional observations from a re-analysis of the deposited data

Results flagged for a closer look

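Vcam1 stands out because its vector contrast differed between the lines by a test of the difference itself. The TS/A contrast minus the 4T1 contrast was 1.60 on the log2 scale (SE 0.18, edgeR adjusted p = 0.0351), with Vcam1 lower in 2 of 2 Gpr56 libraries of 4T1 and higher in 2 of 2 Gpr56-labelled libraries of TS/A. In TS/A it rested on 145 and 134 reads with the Gpr56 label, against 87 and 66 reads with the empty vector.

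Adgrg1 was picked out by the same test, at -5.67 (SE 0.55, adjusted p = 0.0204). Its 4T1 contrast was 5.16 and its TS/A contrast -0.51, so the gene named by the label did not separate the TS/A libraries.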

How the results depend on the processing

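Directions of members past the threshold in the main fit held under every alternative run. Reversed values were all of contrasts that did not pass: Pvr in the difference between lines without TMM factors (-0.015, main 0.024; -0.0508 to 0.10 leaving out 1 library), and, leaving out 1 library, Cd274 in 4T1 (-0.0603 to 0.29), Cd276 in TS/A (-0.31 to 0.32) and Adgrg1 in TS/A (-0.95 to 0.15). For 4T1, 27 genes were called in the main fit, 271 with DESeq2, 57 with limma-voom, 266 with no filter, 2588 with 4T1 alone and 0 to 1285 leaving out 1 library. Members called were 1, against 0 without TMM, 2 with DESeq2 or no filter, 4 with 4T1 alone and 0 to 3 leaving out 1 library. With 4T1 alone, leaving out a library (chosen after seeing the data) gave 1403 to 2748 genes (1596 and 1403 without empty library 1 or 2) and 3 to 4 members. For TS/A, 1 gene was called, against 0 without TMM, with TS/A alone or with the replicate block, 10 with DESeq2, 8 with no filter and 0 to 2933 leaving out 1 library, with 0 to 3 members. For the difference, 8 genes were called, against 4 without TMM, 66 with DESeq2, 0 with limma-voom, 60 with no filter, 3 with the replicate block and 0 to 2391 leaving out 1 library. Its 1 member became 0 without TMM, with limma-voom or with the block, and 0 to 3 leaving out 1 library. Between lines with the empty vector, 5674 genes became 3713 with those 4 libraries alone and 3335 to 7853 leaving out 1 library (4 to 6 members), and with the Gpr56 label 4237 to 8536 (4 to 6 members). With the 4 empty libraries alone the list counts higher in TS/A went to 2 adhesion, 1 checkpoint and 1 stability gene, and death receptor genes lower to 2. The cause of these shifts was not tested. Where leaving out a library left 1 in an arm, that library was assumed to vary like the other groups.

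The deviations of same-numbered libraries correlated at -0.06 to 0.03 in 5 pairs of groups and at 0.31 between the TS/A groups, and with 2 numbers per group and no label for what they share they are not taken as pairs. The replicate block gave 35 calls in 4T1 and 0 in TS/A. Depth limits Icam1 in TS/A: 3 reads correspond to 0.116 to 0.153 CPM there.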
